A study of Mus musculus with 6 samples.

Results

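The 9 mouse genes described here encode the P-type pumps that move calcium out of the cytosol at the cost of ATP: the SERCA pumps Atp2a1, Atp2a2 and Atp2a3, the plasma membrane pumps Atp2b1, Atp2b2, Atp2b3 and Atp2b4, and the Golgi pumps Atp2c1 and Atp2c2. They were taken by gene name among the non-control probes of the array, which gave 14 of 39429 probes and 9 of 31829 gene names. The islets came from male littermates aged 6 weeks on mixed backgrounds (FVB/N x C57Bl/6J for the Nkx6.1-flox line, Cd1 X C57Bl/6J for Pdx1-CreERTM). Control mice were Nkx6.1fl/+;Pdx1-CreERTM and mutant mice Nkx6.1fl/-;Pdx1-CreERTM, so both groups carried a floxed allele and the Cre and both were given tamoxifen in 4 injections, dosed at 2 mg for each 25 g of body weight, from week 4. Each group had 3 RNA samples, and each sample pooled 2 pancreata of 1 genotype. The Cre is driven by Pdx1, a gene active in islet endocrine cells and above all in beta cells, and whole islets also hold cells in which it is not expected to act. The labels call the samples biological replicates, so the p-values measure the spread between these pools. The labels give no protein measurement, and all values below are RNA signals.

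SERCA pumps fill the endoplasmic reticulum with calcium, which beta cells need for folding proinsulin and which they release as a signal. Plasma membrane pumps expel calcium from the cell and are switched on by calmodulin, and Golgi pumps load the Golgi lumen with calcium and manganese for protein processing and sorting. In beta cells Atp2a2 and Atp2a3 are the known SERCA genes, whereas Atp2a1 is best known from fast skeletal muscle.

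In mutant islets 2 of the 9 pump genes fell and none rose. The signal of Atp2a2, the housekeeping SERCA, was 2.32-fold lower, and that of Atp2a1 was 2.02-fold lower. Atp2a3 and Atp2c1 gave lower values on every mutant array without passing the test, and none of the 4 plasma membrane pump genes passed it. Signals are given on a normalized log2 scale, on which 0 is the 75th percentile of an array, differences are mutant minus control, and a gene was called at an adjusted p under 0.05 in limma over all 22775 genes tested. By that rule 1.12% of all genes were called lower, 1.41% higher and 2.53% in either direction, against 2 lower calls among the 9 pumps. At unadjusted p under 0.05 there were 4 pump genes, all of them lower, beside 11.1% of all genes lower and 20.2% in either direction. In bulk islet RNA, fewer cells of a type and less RNA per cell cannot be told apart.

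The arrays carry probes of 60 bases whose positions the files give on mm9. The sequences below are the probe behind the Atp2a1 call, the dimmer of both Atp2a2 probes, which passed the test over probes while the gene call rests on probe 1, and the brighter probe of Atp2b1, a plasma membrane pump that was not called. They are printed 5′ to 3′ as the files give them, with no bases marked.
Atp2a2, probe 2: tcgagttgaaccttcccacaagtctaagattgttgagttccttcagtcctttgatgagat
Atp2a1: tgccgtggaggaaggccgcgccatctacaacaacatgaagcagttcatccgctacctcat
Atp2b1, probe 2: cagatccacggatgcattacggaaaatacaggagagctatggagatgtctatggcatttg
The Atp2a2 sequence has 41.7% G and C, the Atp2a1 sequence 55% and the Atp2b1 sequence 45%. Which exon or part of a transcript each probe lies in was not analysed here.

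Before the pumps, the arrays were checked for their labels and tissue. The signal of Nkx6-1, a beta cell transcription factor and the targeted gene, was 4.79, 4.84 and 4.64 in control arrays 1, 2 and 3 and 4.32, 4.06 and 4.45 in mutant arrays 1, 2 and 3, a difference of -0.48 ± 0.138 (SE; limma adjusted p = 0.131). Its mutant arrays all lay below its control arrays, and whether its only probe lies in the part that recombination removes is not given in the sources used here. All 7 beta cell markers were above background on all 6 arrays, as were all 6 alpha cell and all 4 delta cell markers. The share of probes well above background was 66.8% and 63.9% on mutant arrays 1 and 2 and 73.4% to 76.3% on the other 4. The arrays came from 2 slides, with control 1, mutant 2 and mutant 3 on slide 1 and control 2, control 3 and mutant 1 on slide 2. Differences within a slide, given below, therefore rest on 1 control array for slide 1 and on 1 mutant array for slide 2. All 14 pump probes were tested, 13 of them were well above background on all 6 arrays, and none was saturated or marked as an outlier.

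**Figure D1:**
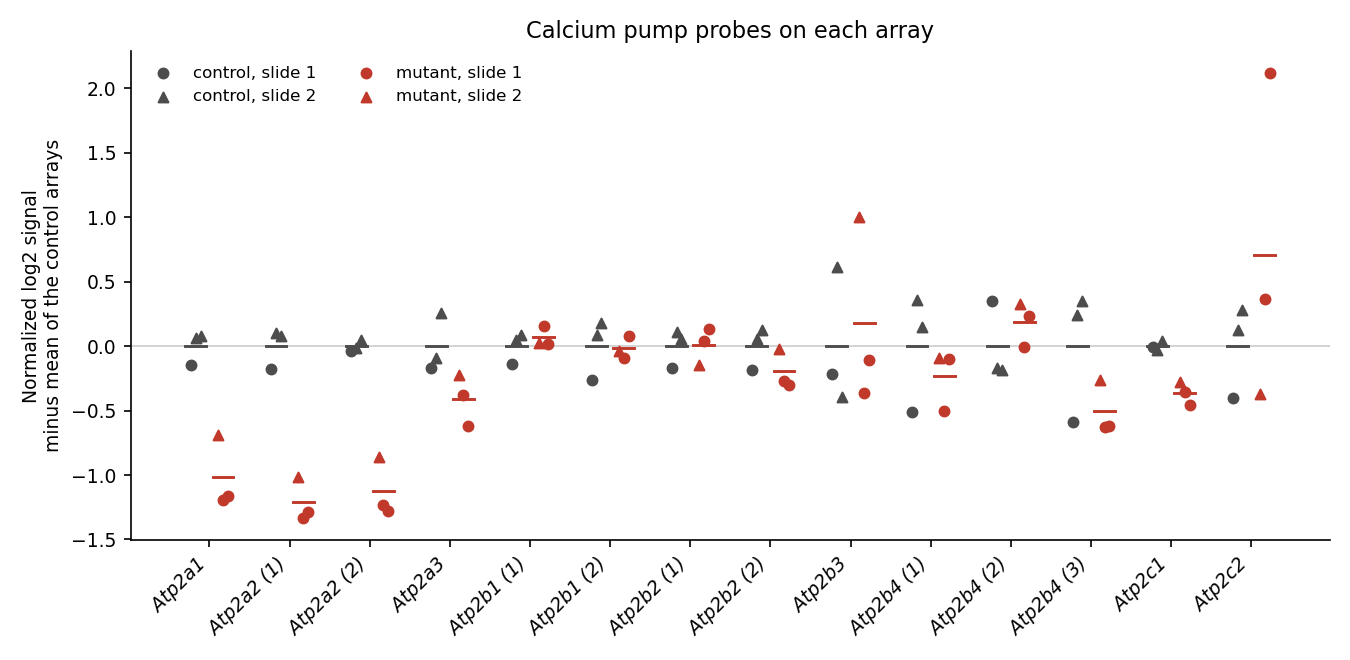
Normalized log2 signal of each of the 14 pump probes on each of the 6 arrays, minus the mean of the 3 control arrays of that probe. Grey marks are control and red marks mutant arrays, circles are slide 1 and triangles slide 2, short lines are group means, and numbers in brackets tell probes of 1 gene apart. The red marks of Atp2a1 and of both Atp2a2 probes lie between -1.34 and -0.69, and mutant 3 stands highest at Atp2c2.

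Atp2a2 encodes SERCA2, the form present in most cell types, and its brightest probe (probe 1) lies on the minus strand at chr5:122903704-122903763. The normalized log2 signal of that probe was 3.63, 3.92 and 3.89 in control arrays 1, 2 and 3. In mutant arrays 1, 2 and 3 it was 2.80, 2.48 and 2.53. All mutant arrays lay well below all control arrays, and mutant 1 was the highest of the mutants. The group means were 3.81 ± 0.157 and 2.60 ± 0.172 (SD, n = 3 each), a difference of -1.21 with a 95% interval from -1.55 to -0.87 (limma adjusted p = 0.0212). In linear terms the mutant signal was 2.32-fold lower, with an interval from 1.83-fold to 2.94-fold.

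The other Atp2a2 probe (probe 2) lies at chr5:122910660-122910719 on the minus strand, upstream of probe 1 in the direction of transcription. It read 0.46, 0.48 and 0.54 in control arrays 1, 2 and 3 and -0.36, -0.74 and -0.79 in mutant arrays 1, 2 and 3. The groups did not overlap here either, and mutant 1 was again the highest mutant. The difference of -1.12 (SE 0.142) was close to that of probe 1, at 2.18-fold lower. In a limma fit over all 28361 probes tested, the adjusted p was 0.0238 for probe 2 and 0.0194 for probe 1. Over the 6 arrays, which include the group difference, the probes followed each other with a Pearson r of 0.989. Within slide 1 the difference at probe 1 was -1.13 and within slide 2 it was -1.11.

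Atp2a1 encodes SERCA1, the calcium pump of fast-twitch muscle, and its probe lies at chr7:133591703-133591762 on the minus strand. Its signal was -1.54, -1.33 and -1.31 in control arrays 1, 2 and 3. It was -2.08, -2.59 and -2.55 in mutant arrays 1, 2 and 3. The groups did not overlap, and mutant 1 was the highest mutant, as at both Atp2a2 probes. The means were -1.39 ± 0.125 and -2.41 ± 0.283 (SD, n = 3 each), and the difference was -1.01 with an interval from -1.43 to -0.60, or 2.02-fold lower (1.52-fold to 2.69-fold; limma adjusted p = 0.0448). The difference was -1.03 within slide 1 and -0.76 within slide 2. Over the 6 arrays Atp2a1 followed Atp2a2 at r = 0.989, and whether the Atp2a1 probe also binds RNA of the related Atp2a2 was not tested.

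Markers of striated muscle were measured beside Atp2a1. Of 6 such markers 3 passed the filter, and Ckm, Mylpf and Myl1 reached signals well above background on all arrays in neither group. None of the 3 was called, with log2 differences of 0.28 for Acta1 (skeletal muscle actin), -0.15 for Tnnt3 and -0.23 for Tnni2, both fast troponins. The summed signal of the list, on a log2 scale relative to the control mean, was -0.059 to 0.031 in controls and 0.074 to 0.168 in mutants. The mean of the 3 markers overlapped between the groups, with -0.071 to 0.091 in controls and -0.198 to 0.068 in mutants, and the median difference was -0.149. The part of muscle RNA in the Atp2a1 values was not tested.

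Most single arrays were needed for either call. Leaving out 1 array at a time, the Atp2a2 difference stayed between -1.31 and -1.15, and its limma adjusted p was 0.111 without control 2, 0.113 without control 3, 0.0989 without mutant 2 and 0.0634 without mutant 3. It remained called without control 1 (0.0362) or mutant 1 (0.0327). For Atp2a1 the adjusted p was 0.0671 without control 1, 0.174 without control 2, 0.177 without control 3, 0.155 without mutant 2 and 0.108 without mutant 3, and it was called without mutant 1 (0.0333), with differences between -1.18 and -0.92. With slide as a block both genes were called, at adjusted p = 0.0156 for Atp2a2 and 0.0295 for Atp2a1, when 1.36% of all genes were called lower.

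Atp2a3 encodes SERCA3, the form known from endocrine, lymphoid and endothelial cells, and its probe lies at chr11:72806289-72806348 on the plus strand. Its signal was 2.71, 2.79 and 3.13 in control arrays 1, 2 and 3 and 2.66, 2.50 and 2.26 in mutant arrays 1, 2 and 3. The groups did not overlap, but control 1 and mutant 1 were only a little apart. The difference was -0.41 with an interval from -0.81 to -0.002, or 1.33-fold lower, and it did not pass the test (limma adjusted p = 0.245; unadjusted p = 0.0491). Within slides it was -0.34 and -0.30.

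To set both beta cell SERCA genes side by side, the log2 signal of Atp2a2 minus that of Atp2a3 was taken on each array, a comparison chosen after the values were seen. It was 0.92, 1.13 and 0.76 in control arrays 1, 2 and 3 and 0.14, -0.02 and 0.27 in mutant arrays 1, 2 and 3. The groups did not overlap, and the means were 0.93 ± 0.185 and 0.13 ± 0.146 (SD, n = 3 each). Since it was chosen on these values, it is a description with no test, and it does not show which of the genes has more RNA.

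**Figure D2:**
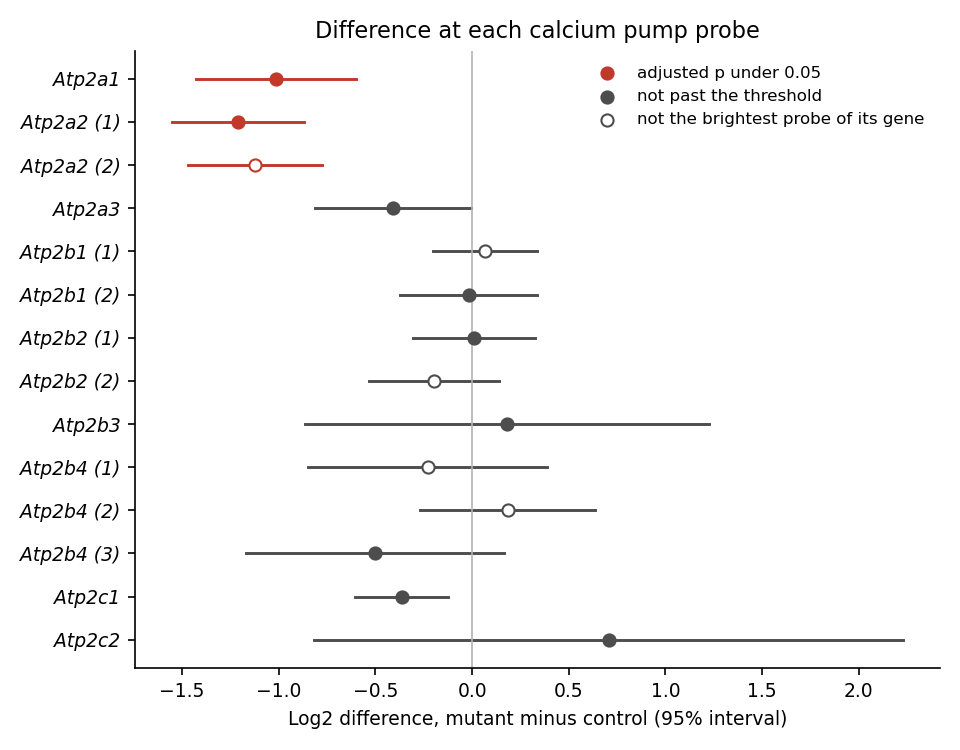
Log2 difference, mutant minus control, at each of the 14 pump probes, with its 95% interval from limma. Red marks passed an adjusted p of 0.05, open marks are probes other than the brightest of their gene, and the intervals of all plasma membrane pump probes include 0.

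Among the plasma membrane pumps, Atp2b1 is the form found in almost all cells. Its brighter probe (probe 2, chr10:98431670-98431729, plus strand) read 0.89, 1.24 and 1.33 in control arrays 1, 2 and 3 and 1.11, 1.06 and 1.23 in mutant arrays 1, 2 and 3. The mutant values lay inside the range of the controls. The difference was -0.018 with an interval from -0.38 to 0.34 (limma adjusted p = 0.956), and its other probe (probe 1, chr10:98485775-98485834) gave 0.069 with an interval from -0.20 to 0.34. A change of the size seen at Atp2a2 is outside both intervals.

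Atp2b2, a form known best from neurons and hair cells, likewise had overlapping groups at its brighter probe (probe 1, chr6:113698347-113698406, minus strand), with 0.60 to 0.87 in controls and 0.62 to 0.90 in mutants. The difference was 0.011 with an interval from -0.31 to 0.33 (limma adjusted p = 0.971). The other probe (probe 2, chr6:113695839-113695898) read 0.39, 0.63 and 0.69 in control arrays 1, 2 and 3 and 0.55, 0.30 and 0.26 in mutant arrays 1, 2 and 3. Its groups overlapped through control 1 and mutant 1, and its difference of -0.20 (interval -0.53 to 0.14) did not pass the test. The Atp2b2 probes did not follow each other over the arrays (r = -0.014).

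Atp2b4, a widely expressed plasma membrane pump, was the member of this family with the lowest difference. Its brightest probe (probe 3, chr1:135603249-135603308, minus strand) read -1.67, -0.83 and -0.72 in control arrays 1, 2 and 3 and -1.34, -1.70 and -1.70 in mutant arrays 1, 2 and 3. Control 1 lay with the mutants, and control 2 and control 3 stood above all of them. The difference was -0.50 with an interval from -1.17 to 0.17 (limma adjusted p = 0.366), and it was -0.033 within slide 1 and -0.56 within slide 2. It was -0.80 (adjusted p = 0.0766) without control 1 and -0.328 (adjusted p = 0.72) without control 3. The fit that blocked on slide gave -0.30 at an adjusted p of 0.314. The 2 dimmer probes of Atp2b4 gave -0.23 (probe 1, chr1:135608273-135608332) and 0.185 (probe 2, chr1:135611676-135611735), so the 3 probes of this gene did not share a direction.

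Atp2b3, a form of neurons and muscle, was the dimmest pump, with signals of -6.76 to -5.75 in controls and -6.72 to -5.36 in mutants at chrX:70816247-70816306 (plus strand). It was above background on 5 arrays and not on mutant 2. The groups overlapped over most of their range, and the interval of its difference ran from -0.88 to 1.23. The median difference of the 4 plasma membrane pumps was -0.00384, beside -0.0254 over all 22775 genes.

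Atp2c1 encodes the common Golgi pump and was measured at chr9:105313725-105313784 on the minus strand. Its signal was 1.25, 1.23 and 1.30 in control arrays 1, 2 and 3 and 0.98, 0.91 and 0.81 in mutant arrays 1, 2 and 3. The controls lay within 0.07 of each other and all mutants were below them. The difference was small, -0.36 with an interval from -0.60 to -0.12, or 1.29-fold lower, and it did not pass the test (limma adjusted p = 0.119). It was -0.40 within slide 1 and -0.28 within slide 2.

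Atp2c2 encodes the Golgi pump of secretory epithelia and was measured at chr8:122279889-122279948 on the plus strand. Its signal was -4.50, -3.97 and -3.82 in control arrays 1, 2 and 3 and -4.47, -3.73 and -1.98 in mutant arrays 1, 2 and 3. Mutant 1 lay with the lowest control and only mutant 3 stood clearly above. The difference was 0.71 with an interval from -0.83 to 2.24 (limma adjusted p = 0.566), and without mutant 3 it was 0.

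Markers of acinar cells, the enzyme-secreting cells around the islets, varied on the same arrays. Set against its mean in the controls, the average of 10 such markers was -0.32, -0.064 and 0.38 in control arrays 1, 2 and 3 and -0.92, 0.91 and 1.91 in mutant arrays 1, 2 and 3. All 10 were above background on all arrays, none was called, and their summed signal ranged from -0.28 to 0.32 in controls and from -0.82 to 1.57 in mutants on the log2 scale. Mutant 3 was the highest array for both the markers and Atp2c2, and the part of acinar RNA in the Atp2c2 values was not tested.

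**Figure D3:**
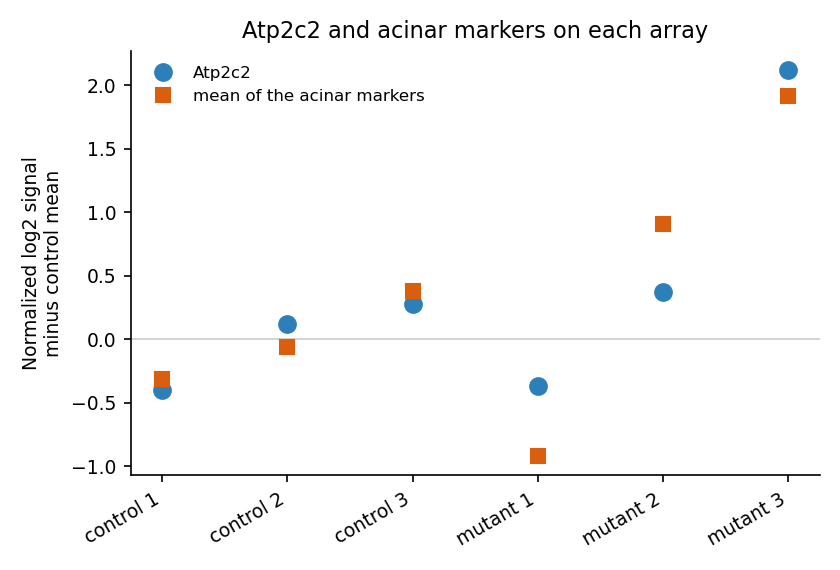
Normalized log2 signal of Atp2c2 (blue circles) and mean of the 10 acinar markers (orange squares) on each array, minus the mean of the control arrays. Mutant 3 is the highest array of both, and mutant 1 lies below the control mean for both.

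Over the family, 6 of the 9 genes had a difference below 0 (53.4% of all genes tested), and 4 had all mutant arrays below all control arrays (14.0% of all genes tested). In either direction 26.3% of all genes did not overlap. The median difference was -0.363 over the 9 pumps and -1.01 over the 3 SERCA genes, and the pump median was -0.183 with the mean and -0.197 with the lowest of the probes of a gene. At least 2-fold lower signals, found for Atp2a1 and Atp2a2, occurred in 2.24% of all genes. Of the 14 probes 3 were called lower, beside 1.28% of all probes tested (2.75% called in either direction), and 5 had groups that did not overlap, beside 26.4% of all probes in either direction.

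Other cell types of the samples were read through their markers. Of the 7 beta cell markers, Slc30a8 (the zinc transporter of the insulin granule) fell by 0.96 on the log2 scale (limma adjusted p = 0.0282). Ucn3 (urocortin 3, a marker of mature beta cells) fell by 1.24 (limma adjusted p = 0.0236). The other 5 were not called and went both ways, with 0.259 for Ins1, 0.246 for Ins2, 0.262 for Iapp, -0.765 for Mafa and -0.814 for G6pc2. The summed beta cell signal ranged from -0.16 to 0.32 in controls and from -0.31 to 0.40 in mutants, and the mean of the markers from -0.11 to 0.19 and from -0.49 to -0.34. None of the 6 leukocyte and none of the 6 endothelial markers, the cell types besides beta cells in which Atp2a3 is known, was called. Summed leukocyte signals were -0.24 to 0.19 in controls and -0.62 to -0.46 in mutants, with Cd3e by far the brightest probe, while the mean of the 6 leukocyte markers overlapped (-0.32 to 0.57 and -0.56 to 0.24). Summed endothelial signals were -0.16 to 0.12 and -0.10 to 0.09. All 6 alpha cell, all 4 delta cell, all 10 acinar cell and all 6 mesenchyme markers had a difference above 0, and none was called. Of all genes tested, 53.4% had a difference below 0. The mean of the alpha cell markers was -0.31 to 0.30 in controls and 0.31 to 0.59 in mutants, that of the delta cell markers -0.53 to 0.37 and 0.42 to 0.88, and that of the mesenchyme markers -0.52 to 0.69 and 0.28 to 0.54. The alpha and delta cell means did not overlap between the groups, though each was close at its edge, and the mesenchyme means overlapped. Summed alpha cell signals did overlap, at -0.208 to 0.344 in controls and -0.145 to 0.715 in mutants. So did summed delta cell signals, at -0.4 to 0.372 and 0.222 to 0.754. None of the 4 duct cell and none of the 6 Schwann cell and neuron markers was called. Cftr gave 3.12 (limma adjusted p = 0.0831, and 0.0157 with slide as a block), and the other 3 duct differences were below 0. The Cftr probe was dim, at -7.11 to -5.13 in controls and -4.37 to -2.50 in mutants. It was well above background on only 5 arrays. Summed duct signals overlapped (-0.062 to 0.124 and -0.676 to 0.037). Summed Schwann cell and neuron signals did not (-0.049 to 0.091 and -0.692 to -0.218), but the means of that list did (-0.175 to 0.288 and 0.161 to 0.37). The part of cell composition in the SERCA differences was not tested.

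Across all tested genes with a symbol, those whose signals followed Atp2a2 most closely over the 6 arrays were Fam166a (r = 0.999, difference -2.54), Vdr, the vitamin D receptor (r = 0.998, difference -1.29), and Ptprf, a receptor tyrosine phosphatase (r = 0.998, difference -0.54). Those closest to Atp2a3 were Plgrkt, a plasminogen receptor (r = 0.998), Cks1brt (r = 0.995) and Eif2ak1, a heme-regulated kinase (r = 0.99), with differences of -0.15, -0.34 and -0.12. These values describe 6 arrays that share 2 groups and 2 slides.

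The pumps work against channels, exchangers and buffers, and 58 such genes were listed, of which 51 were tested. Of the 51, 2 rose and none fell, beside 1.41% of all genes called higher, 1.12% lower and 2.53% in either direction. A count of 2 is too small to be read as a result about the list. At unadjusted p under 0.05 there were 11 higher and 6 lower, beside 9.09% of all genes higher and 11.1% lower. Both called genes were inositol trisphosphate receptors, the channels that let calcium out of the endoplasmic reticulum. Not tested were Pln and Sln (small inhibitors of SERCA in muscle), Ryr2, Slc24a1, Casq1, Calb2 and Tpcn2, which did not pass the filter. The median difference of the list was 0.081.

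Itpr1 read 2.89, 2.81 and 2.65 in control arrays 1, 2 and 3 and 3.63, 3.55 and 3.49 in mutant arrays 1, 2 and 3. Itpr2 read 0.99, 1.05 and 1.06 in control arrays 1, 2 and 3 and 1.64, 1.65 and 1.60 in mutant arrays 1, 2 and 3. Neither gene had overlapping groups, and the spread within each group was small. Itpr1 was 1.72-fold higher (difference 0.78, interval 0.51 to 1.04; limma adjusted p = 0.0317), and Itpr2 was 1.51-fold higher (difference 0.59, interval 0.37 to 0.81; adjusted p = 0.0386). Itpr3, the third receptor, had a difference of 0.33 (1.26-fold higher) and did not pass the test (adjusted p = 0.196). Leaving out any 1 array but control 1 ended the Itpr1 call, with adjusted p of 0.0663 without mutant 1, 0.13 without mutant 2, 0.0701 without mutant 3, 0.139 without control 2 and 0.148 without control 3. For Itpr2 every array left out ended it, with 0.0626 without control 1, 0.16 without control 2, 0.167 without control 3, 0.0716 without mutant 1, 0.151 without mutant 2 and 0.0878 without mutant 3.

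None of the other 8 groups of the list held a called gene, and the gene with the largest difference in each is given here. Among the 8 sodium-calcium exchangers, which expel or move calcium against sodium, Slc24a3 gave 1.05 (2.07-fold higher; limma adjusted p = 0.0948, and 0.0432 with slide as a block). The exchangers as a group had the lowest median of the list, -0.391. Among 6 genes of store-operated entry, which refills the stores, Orai2, a plasma membrane channel subunit, gave 0.70 (adjusted p = 0.109). Mcu, the pore of the mitochondrial uniporter, gave -0.50 (1.41-fold lower; adjusted p = 0.0788) among 7 mitochondrial genes. Its probe was dim, with means of -5.23 in controls and -5.725 in mutants, and was well above background on only 5 arrays.

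Nucb2, a calcium-binding protein of the secretory pathway, gave 0.69 among 11 genes of the endoplasmic reticulum and Golgi lumen (adjusted p = 0.142). Tpcn1, a channel of endosomes and lysosomes, gave -0.49 among 4 genes of other organelles (adjusted p = 0.121). S100a1 gave 0.162 among 2 SERCA regulators, and Nptn, a subunit of plasma membrane pump complexes, gave 0.21 among 5 partners and calmodulin genes. The cytosolic buffer S100g had the largest difference of all, 3.46, but was above background on only 4 arrays and did not pass the test (adjusted p = 0.36).

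**Figure D4:**
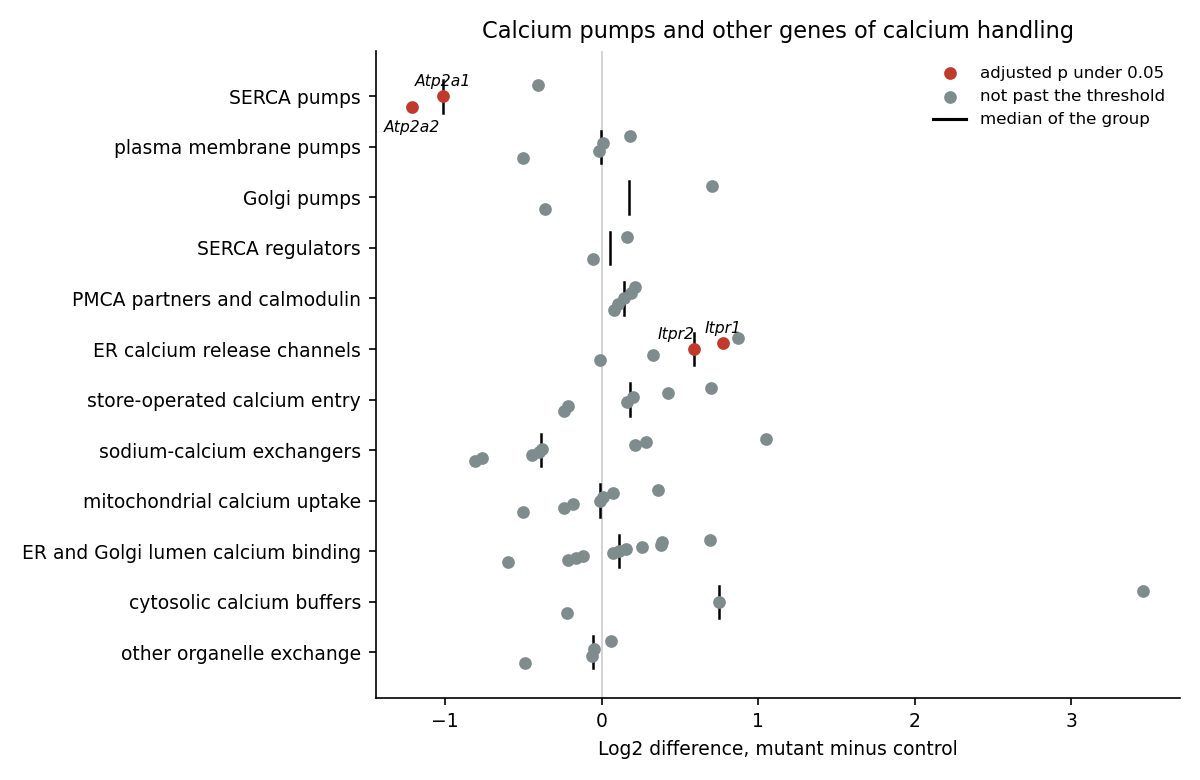
Log2 difference, mutant minus control, of the 9 pump genes and the 51 tested genes of calcium handling, by group. Each point is 1 gene, red points passed an adjusted p of 0.05 in limma, and black lines are group medians, from -1.01 for the SERCA pumps to 0.747 for the cytosolic buffers.

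Each pump gene was also measured under 20 other settings of background correction, scaling, filter, probe choice and arrays left out (19 for Atp2b3). Atp2a1 ranged from -1.18 to -0.89 and Atp2a2 from -1.31 to -1.12. Atp2a3 and Atp2c1 were below 0 in all 20 and were called in none. The signs of Atp2b1, Atp2b2 and Atp2b3 turned in some of them, and that of Atp2b4 turned with the choice of probe.

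**Figure D5:**
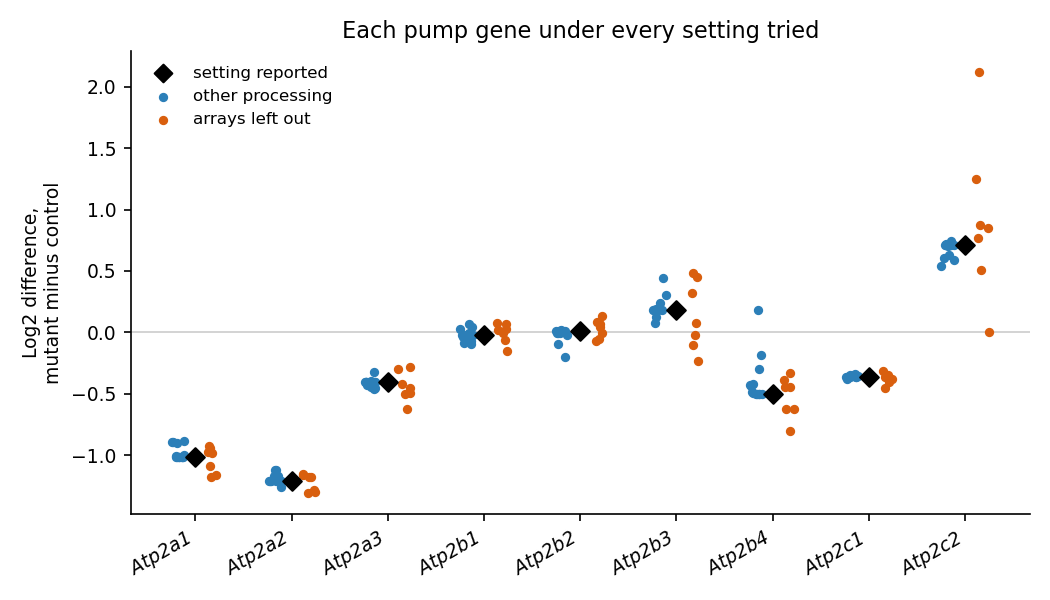
Log2 difference, mutant minus control, of each pump gene in the setting reported (black diamonds), under other processing (blue) and with arrays left out (orange). Every point of Atp2a1, Atp2a2, Atp2a3 and Atp2c1 lies below 0, and Atp2c2 ranges from 0 to 2.12.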

How the data were processed

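Single-colour Agilent mouse arrays measured 150 ng of Cy3-labelled RNA from each of 6 islet pools. Scans were read with Agilent Feature Extraction 10.7.3.1, per the submitters' processing notes, and the deposited files hold spot intensities that the software had corrected for background, per the file headers, with flags (other values) for saturation, outliers and signal well above background. A deposited table of linear intensities, equalized by the authors with no method stated in the sources used here, served as an alternative. Its ranks matched those of the median signal of the spots (rank correlation 0.9999 to 1). Its column medians were 252.8, 251.8 and 252.5 in controls 1 to 3 and 256.5, 255.8 and 258.8 in mutants 1 to 3. Whether background had been taken off this table was not tested.

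The processed intensity was taken to log2, averaged over spots of a probe, and set relative to the 75th percentile of each array. Tested were probes that stood well above background on all 3 control arrays, all 3 mutant arrays or both (28361 of 39429), and the brightest tested probe, by mean signal, stood for its gene (22775 of 31829 gene names). Current symbols came from a RefSeq table through the accessions of the files, which matched for 15528 of these probes. The comparison used limma 3.58.1 under R 4.3.3 (files were read with package data.table, version 1.17.8), two-sided, with Benjamini-Hochberg adjustment over all genes or all probes, after a test on simulated data. The number of arrays limits the precision. Slide was also fitted as a block. Replicate numbers occur in both groups without a stated pairing, so they were not used as pairs. Deviations of same-numbered samples from their group means correlated at -0.23, -0.19 and -0.031. No same-numbered samples shared a slide, and control and mutant samples that did share a slide correlated at 0.084 to 0.233. These correlations therefore cannot tell whether the numbers mark pairs.

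The members, the gene lists and the tests were chosen with earlier results of these data known. The named genes are all 9 pumps, Nkx6-1, every called gene of the calcium handling list, the gene with the largest difference in each of its groups without a call, and the 3 genes most correlated with Atp2a2 and with Atp2a3. Marker genes are named as levels beside results. Alternatives were other background corrections and scalings, other filters and probe choices, blocks, a variance trend with robust estimation, other thresholds, and arrays left out.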

Additional observations from a re-analysis of the deposited data

How the results depend on the processing

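The signs of Atp2a1, Atp2a2, Atp2a3 and Atp2c1 held in all 20 settings. Atp2a2 was called in 14 of them and Atp2a1 in 12. Without a filter on dim probes, which adds genes to the adjustment, 1 pump gene (Atp2a2) and 0 calcium handling genes were called in limma (15 higher and 7 lower at unadjusted p under 0.05). With a block on the replicate number 0 of all genes, 0 pump genes, 0 pump probes and 0 calcium handling genes passed, while 3163 genes in all and 2 pumps had an unadjusted p under 0.05; this block spends residual degrees of freedom. With mutant arrays 1 and 2 left out, 150 genes in all, 0 pump genes, 0 pump probes and 0 calcium handling genes were called, with 4 pumps at unadjusted p under 0.05; the lone mutant is assumed to vary like the controls. With 1 array left out, 13 to 396 genes in all were called (576 with all arrays), 0 to 2 pump genes, 0 to 3 pump probes and 0 to 2 calcium handling genes, and 3 to 5 pumps had an unadjusted p under 0.05. Scaling to the median left 1 calcium handling gene. At an adjusted p under 0.1, 1514 genes in all and 5 of calcium handling were called. The pump median was -0.183 with the mean of the probes of a gene, which was the value of Atp2b4 in that setting. With the brightest probe Atp2b4 gave -0.504, and the median of -0.363 was the value of Atp2c1.

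Signs near 0 turned, with no cause tested. Atp2b1 was 0.043 with slide as a block, 0.025 with the mean of probes, 0.069 with the lowest probe, 0.078 without mutants 1 and 2, and -0.151 to 0.07 with 1 array left out. Atp2b2 was -0.002 with normexp and with the deposited table, -0.019 with normexp and quantile normalization, -0.007 with quantile normalization, -0.093 with the mean of probes, -0.197 with the lowest probe, 0.134 without mutants 1 and 2, and -0.073 to 0.087 with 1 array left out. Atp2b3 was -0.105 without mutants 1 and 2 and -0.232 to 0.485 with 1 array left out, and could not be fitted where all 6 arrays had to be above background. Atp2b4 was 0.185 with the lowest probe.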

Other observations

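Of the 51 other genes of calcium handling tested, 13 had all mutant arrays above and 6 all mutant arrays below the control arrays. Itpr1 and Itpr2 were among the former. Of all genes tested, 26.3% did not overlap in either direction, and 14.0% had all mutant arrays below the control arrays. The examples here, none of them called in the setting reported, were chosen after their values were seen. Slc8a3, a sodium-calcium exchanger, read 1.70, 2.48 and 2.39 in control arrays 1, 2 and 3 and 1.42, 1.42 and 1.43 in mutant arrays 1, 2 and 3, a difference of -0.77 (limma adjusted p = 0.131). It was called when control 1, the lowest control, was left out. Slc24a2, a potassium-dependent sodium-calcium exchanger, gave -0.45 (adjusted p = 0.0902) with controls at 2.70 to 2.78 and mutants at 2.21 to 2.43, and it was called with a variance trend and robust estimation. Stim1, the calcium sensor of the endoplasmic reticulum, gave 0.43 (adjusted p = 0.15), and the lumenal calcium-binding proteins Nucb1 and Sdf4 gave 0.39 and 0.38 (adjusted p = 0.106 and 0.108).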
